A study of Homo sapiens with 9 samples.

Results

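The 7 members of the APOBEC3 family of cytidine deaminases, APOBEC3A, APOBEC3B, APOBEC3C, APOBEC3D, APOBEC3F, APOBEC3G and APOBEC3H, were followed in RNA-seq counts of the human breast cancer line MDA-MB-231 and its metastatic sub-populations. They were taken by gene symbol, and each had 1 row among the 58884 genes of the table. MDA-MB-231 is a claudin-low, triple-negative line, grown here without treatment and referred to as Par. LM2 and BrM2 were selected in vivo from it for growth in the lung and the brain of mice, respectively. All 3 lines were kept in monolayer in DMEM with FBS and antibiotics, and for each 3 replicates were harvested at different passages, so 9 stranded mRNA libraries were compared. Each sub-population is a single selected line, so differences describe these lines as cultured and not metastases in tissue.

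APOBEC3 enzymes remove the amino group of cytosine in single-stranded DNA and leave uracil. They restrict retroviruses and endogenous retroelements, and in many tumours, breast cancers among them, their activity leaves clustered C-to-T and C-to-G mutations. In myeloid and lymphoid cells several members are induced by interferon, whereas APOBEC3B in epithelial cells is also known to respond to protein kinase C and NF-kappa-B signalling and to cell-cycle regulators.

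The libraries held between 14371858 and 24511786 gene counts, and 3 counts corresponded to 0.115 to 0.221 CPM, that is counts relative to the normalized size of the library. The mesenchymal and basal markers of the line, VIM, CD44, EGFR, CAV1 and AXL among them, summed to between 4600 and 7640 CPM together with KRT8 and KRT18. ESR1 did not exceed 16 counts and PGR did not exceed 4 counts in any library. Other luminal and claudin genes were present in Par, with means of 95.4 CPM for CLDN4, 13.4 for CLDN7, 12.9 for GATA3 and 7.17 for EPCAM. CDH1, CLDN3 and FOXA1 were low there, at 1.2, 0.259 and 0.0131 CPM. Among the leukocyte markers, PTPRC had 0 to 6 counts, CD2 and MS4A1 had 0 counts in all libraries, and the summed level of the 14 markers was 10.2 to 19.3 CPM in Par, 6.78 to 13.9 CPM in LM2 and 4.72 to 7.82 CPM in BrM2. Most of it came from CSF1R, CD14 and CD8A, and the part of these transcripts in the APOBEC3 values was not tested. The replicate 1 libraries stood apart in all 3 lines, as described for the members below. In bulk RNA, fewer cells with a transcript and less of it per cell cannot be told apart.

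Of the 7 members, 4 passed the filter on low counts, namely APOBEC3B, APOBEC3C, APOBEC3F and APOBEC3G, as did 13018 genes in all. Divided by the length of the canonical transcript, the highest level in Par was that of APOBEC3B, at 19.4 ± 4.94 CPM per kb (SD, n = 3). APOBEC3C followed at 14.2 ± 3.95 CPM per kb, and the Par libraries of these genes overlapped. APOBEC3G, at 3.21 ± 0.582, and APOBEC3F, at 1.08 ± 0.213 CPM per kb, lay well below. In LM2 the same order held on this scale, with 32.3 ± 10.3, 28 ± 12.2, 15.7 ± 4.03 and 3.11 ± 0.784 CPM per kb, and in BrM2 with 27.3 ± 2.66, 18 ± 3.71, 7.66 ± 1.03 and 1.39 ± 0.402 CPM per kb. The place of APOBEC3G above APOBEC3F in Par depended on the length used, as did that of APOBEC3B above APOBEC3C in LM2. With the union of all annotated exons, which is longer than the canonical transcript for APOBEC3G (5375 against 1564 bases), the Par levels were 0.933 ± 0.167 CPM per kb for APOBEC3G and 0.93 ± 0.184 for APOBEC3F. The LM2 levels on that scale were 27.1 ± 8.68 CPM per kb for APOBEC3B and 28 ± 12.2 for APOBEC3C.

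**Figure D1:**
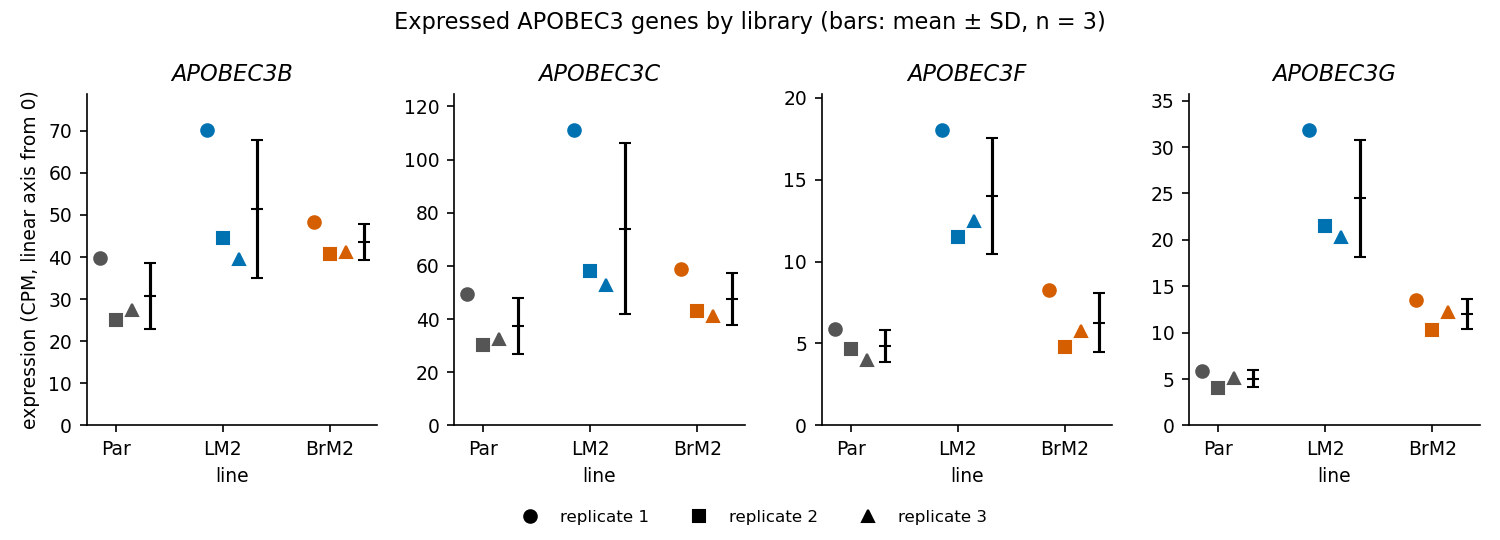
Levels of the 4 expressed APOBEC3 genes in CPM (linear axes from 0) in Par, LM2 and BrM2, with 1 point per library, its shape showing the replicate number, and bars for the mean ± SD of 3 libraries. APOBEC3G separates all 3 lines without overlap, and replicate 1 is the highest library of every line for all 4 genes.

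APOBEC3G (ENSG00000239713, chromosome 22, 39077005 to 39087743) restricts Vif-deficient HIV and edits DNA at CC dinucleotides. Its level was 5.88, 4.07 and 5.11 CPM in Par replicates 1, 2 and 3. In LM2 it was 31.8, 21.5 and 20.3 CPM, and in BrM2 13.5, 10.3 and 12.2 CPM. No library of any line overlapped with those of another, with LM2 highest and Par lowest. The LM2 mean was 4.88-fold that of Par, a log2 fold change of 2.29 with a 95% interval from 1.69 to 2.88 (edgeR quasi-likelihood test, Benjamini-Hochberg adjusted p = 0.00099). BrM2 lay 1.25 above Par on the log2 scale (interval 0.67 to 1.83, edgeR adjusted p = 0.012) and fell by 1.03 against LM2 (edgeR adjusted p = 0.038). The difference from Par remained past the threshold of 0.05 in all 9 fits that left out 1 library for LM2, and in 8 of 9 for BrM2, where it was lost without Par replicate 2 (edgeR adjusted p = 0.063). The difference between BrM2 and LM2 passed in 0 of those 9 fits, with a lowest edgeR adjusted p of 0.051 and log2 fold changes from -1.15 to -0.80.

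APOBEC3F (ENSG00000128394, 39040864 to 39055972) also restricts retroviruses, with a preference for TC dinucleotides. Its level was 5.88, 4.65 and 4.01 CPM in Par, 18, 11.5 and 12.5 CPM in LM2, and 8.26, 4.77 and 5.75 CPM in BrM2, in the order of the replicate numbers. The LM2 libraries were above all others, whereas the BrM2 and Par libraries overlapped. LM2 rose 2.89-fold above Par, with a log2 fold change of 1.53 (interval 0.86 to 2.20, edgeR adjusted p = 0.013), although this call was lost without Par replicate 2 (0.068) or Par replicate 3 (edgeR adjusted p = 0.061). Between BrM2 and Par the log2 fold change was 0.37 with an interval from -0.30 to 1.03 (edgeR adjusted p = 0.53). BrM2 fell by 1.16 on the log2 scale against LM2 (edgeR adjusted p = 0.043), and this call passed in 1 of the 9 fits that left out a library, where the edgeR adjusted p ran from 0.029 to 0.17.

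APOBEC3B (ENSG00000179750, 38982347 to 38992779) is a nuclear member that is often high in breast tumours and has been linked to their mutations. Its level was 39.7, 25.1 and 27.5 CPM in Par, 70.1, 44.6 and 39.5 CPM in LM2, and 48.4, 40.8 and 41.3 CPM in BrM2. The Par and LM2 libraries spread widely because replicate 1 was high, while those of BrM2 lay closer together (SD 4.25 CPM). Par replicate 1 reached into the LM2 range but stayed under all BrM2 libraries. The log2 fold change was 0.74 for LM2 against Par (interval 0.12 to 1.36, edgeR adjusted p = 0.16) and 0.50 for BrM2 against Par (interval -0.12 to 1.12, edgeR adjusted p = 0.31). With the replicate number as a block, which compares libraries of the same number, the estimates were 0.73 and 0.53 and both passed (edgeR adjusted p = 0.0023 and 0.01). BrM2 differed from LM2 by -0.24 on the log2 scale (interval -0.86 to 0.37, edgeR adjusted p = 0.71), and the block left it short of the threshold as well, at -0.20 (edgeR adjusted p = 0.28). Without LM2 replicate 1 this difference was 0.05 and that of LM2 against Par was 0.45, and neither passed. That fit is unbalanced, as it kept the high replicate 1 of Par and BrM2. Without replicate 1 in every line they were -0.02 and 0.68, and the latter passed (edgeR adjusted p = 0.0057).

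APOBEC3C (ENSG00000244509, 39014257 to 39020352) has a single deaminase domain and weak antiviral activity. Its level was 49.5, 30.3 and 32.5 CPM in Par, 111, 58.1 and 53 CPM in LM2, and 58.9, 42.9 and 41.2 CPM in BrM2. All LM2 libraries were above all Par libraries, and the BrM2 libraries overlapped with both. The log2 fold change of LM2 against Par was 0.98 (interval 0.22 to 1.74, edgeR adjusted p = 0.12), and 0.94 with the replicate block (edgeR adjusted p = 0.00038). For BrM2 against Par it was 0.35 (interval -0.41 to 1.10, edgeR adjusted p = 0.61) and 0.37 with the block (edgeR adjusted p = 0.048), a call that was lost in the blocked fit without the filter on low counts (edgeR adjusted p = 0.094). For BrM2 against LM2 it was -0.64 (interval -1.39 to 0.12, edgeR adjusted p = 0.33) and -0.57 with the block (edgeR adjusted p = 0.0072). Without LM2 replicate 1 and without the block, the differences of LM2 from Par and of BrM2 from LM2 were 0.57 and -0.22. Without BrM2 replicate 1, BrM2 differed from Par by 0.17. These fits are unbalanced, as they kept the high replicate 1 of the other lines. Without replicate 1 in every line, the same differences were 0.82, -0.39 and 0.44.

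The other members stayed under the filter. APOBEC3A (ENSG00000128383, 38957609 to 38963184), a highly active member of myeloid cells, had 1 count in Par replicate 2 and 0 counts in the other 8 libraries, which allows up to 3 counts in each of those by counting error alone. APOBEC3H (ENSG00000100298, 39097244 to 39104067), whose protein stability differs between human haplotypes, had 2, 3 and 2 counts in Par, 9, 4 and 3 in LM2, and 0, 0 and 4 in BrM2. Its counts overlapped between all lines, and without the filter no comparison passed the threshold (lowest edgeR adjusted p = 0.53). APOBEC3D (ENSG00000243811, 39021127 to 39033277), a restriction factor with a pair of deaminase domains, had 4, 5 and 11 counts in Par, 12, 7 and 10 in LM2, and 10, 4 and 4 in BrM2, again with overlap and no call without the filter (lowest edgeR adjusted p = 0.79).

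The low counts of APOBEC3D cannot be read as low expression. A read-through gene of the same strand that overlaps APOBEC3C and APOBEC3D, ENSG00000284554, covers 83.2% of the exon bases of APOBEC3D and 0.6% of those of APOBEC3C. STAR's gene counting leaves out reads that fall on more than 1 gene, and the read-through gene had 0 counts in all 9 libraries. The overlap was measured on a GENCODE release for another genome build than the one counted on, so a loss of reads was not shown directly. For the other members the exons were free of same-strand overlap. The antisense gene APOBEC3B-AS1 overlaps 12.9% of the exon bases of APOBEC3B and held 1 count over all libraries. Sequence shared among the members also limits the counting of reads that fit several places. Of all 50-base stretches, 26.9% of those of APOBEC3B occur in transcripts of other annotated genes, 14.1% in APOBEC3A and 7.8% in APOBEC3D, while the share was 85.9% for APOBEC3D, mostly through the read-through gene, 20.8% for APOBEC3A, 12% for APOBEC3F, 5.8% for APOBEC3G, 1.2% for APOBEC3C and 0.0% for APOBEC3H.

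**Figure D2:**
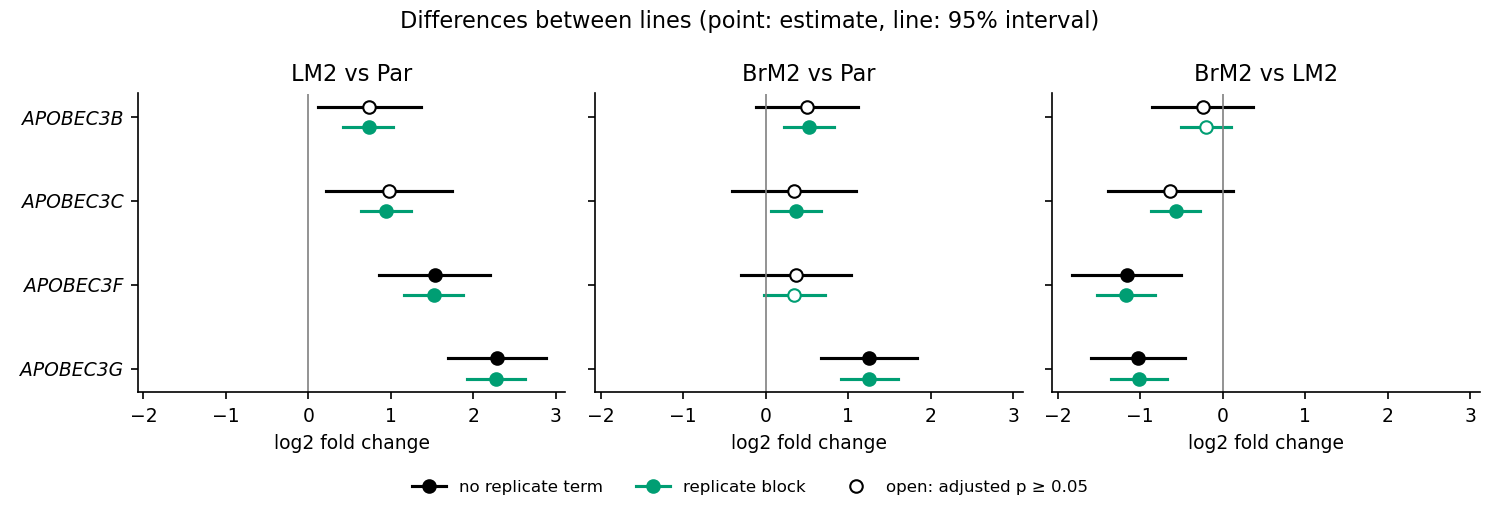
Log2 fold changes of the 4 expressed members in the 3 comparisons, with 95% intervals, without a replicate term (black) and with the replicate block (green), where filled points have an adjusted p under 0.05. The estimates stay close between the fits, for example 0.98 and 0.94 for APOBEC3C in LM2 against Par, while the intervals narrow with the block.

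Which expression changes accompany lung or brain colonization was the question of the comparisons with Par. When LM2 was compared to Par, APOBEC3F and APOBEC3G rose, 2 of the 4 members tested and of the 7 in all, where 8.67% of all tested genes passed the threshold and 4.16% did so as higher. The libraries did not overlap for APOBEC3C, APOBEC3F and APOBEC3G, which held for 11.8% of all tested genes in that direction. When BrM2 was compared to Par, APOBEC3G was the 1 member to rise of the 4 tested, with 13.2% of all tested genes past the threshold and 6.24% higher. The libraries there did not overlap for APOBEC3B and APOBEC3G, as for 15.2% of all tested genes. Both comparisons share the Par libraries, so they are not independent of each other. Between the sub-populations, APOBEC3F and APOBEC3G were lower in BrM2 than in LM2, against 8.10% of all tested genes called and 4.01% called lower, and these were also the members whose libraries did not overlap (11.7% of all tested genes in that direction). With the replicate block 4 members passed in LM2 against Par, 3 in BrM2 against Par and 3 in BrM2 against LM2. The block also called 34.5%, 42.7% and 37.5% of all tested genes, and 15.5%, 19.5% and 19.7% in the direction of the members. The median log2 fold change of all tested genes was 0.01, -0.02 and -0.03 in the 3 comparisons.

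Because scaling cancels within a library, the members were also set against each other. For each count of APOBEC3B there were 0.165 ± 0.0191 counts of APOBEC3G in Par, 0.275 ± 0.0213 in BrM2 and 0.483 ± 0.0306 in LM2 (SD, n = 3). The ranges of these ratios, 0.148 to 0.186, 0.252 to 0.295 and 0.453 to 0.514, did not overlap. Replicate 1, which was high for each gene, was the lowest library in this ratio in Par and LM2 and lay between the others in BrM2. APOBEC3F per count of APOBEC3B was 0.146 to 0.185 in Par and 0.117 to 0.171 in BrM2, which overlapped, and 0.257 to 0.315 in LM2, above both. APOBEC3C per count of APOBEC3B was 1.18 to 1.25 in Par, 1.3 to 1.58 in LM2 and 0.997 to 1.22 in BrM2. The ratio of APOBEC3G to APOBEC3F counts was 0.875 to 1.27 in Par, and higher at 1.63 to 1.87 in LM2 and 1.63 to 2.16 in BrM2, where the sub-populations overlapped.

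**Figure D3:**
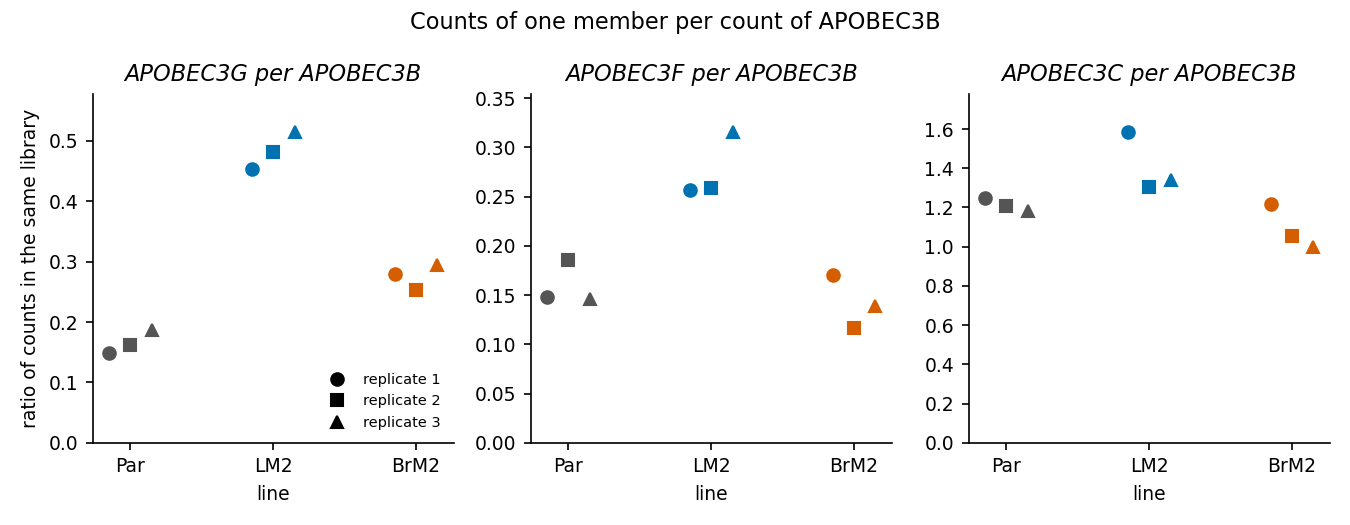
Counts of APOBEC3G, APOBEC3F and APOBEC3C per count of APOBEC3B in the same library (linear axes from 0), 1 point per library. APOBEC3G per APOBEC3B separates the lines at 0.148 to 0.186, 0.252 to 0.295 and 0.453 to 0.514, whereas APOBEC3F per APOBEC3B separates LM2 alone.

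The family as a whole summed to 78.5 ± 19.9 CPM in Par, 165 ± 58.6 in LM2 and 110 ± 17.3 in BrM2. APOBEC3B and APOBEC3C held most of the counts in every line. The share of APOBEC3G in the family's counts was 6.49 ± 0.784% in Par, 15.2 ± 1.32% in LM2 and 11 ± 0.969% in BrM2, without overlap between any pair of lines. The share of APOBEC3B was 39.2 ± 0.317% in Par and 39.8 ± 2.21% in BrM2, and lower in LM2 at 31.5 ± 1.26%. The exact 2-sided permutation test of 3 libraries against 3 gave its smallest possible p of 0.10 for the share of APOBEC3G in all 3 comparisons, for that of APOBEC3B and APOBEC3F in both comparisons with LM2, and for that of APOBEC3C in BrM2 against Par. APOBEC3C held 47.5 ± 1.19%, 44.2 ± 3.16% and 43.2 ± 2.28% in Par, LM2 and BrM2.

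Replicate 1 was the highest library of each line for APOBEC3B, APOBEC3C, APOBEC3F and APOBEC3G. The same held for 34.0% of all tested genes. Against replicates 2 and 3, in a fit with the lines as a term, replicate 1 was higher by 0.53 on the log2 scale for APOBEC3B and by 0.72 for APOBEC3C (edgeR adjusted p = 0.00094 and 8.2e-05). The difference was 0.56 for APOBEC3F and 0.42 for APOBEC3G (edgeR adjusted p = 0.0023 and 0.012). In that fit 73.5% of all tested genes passed the threshold and 36.3% were higher. Without replicate 1 in every line, APOBEC3B and APOBEC3C also passed in LM2 against Par, at 0.68 and 0.82 (edgeR adjusted p = 0.0057 and 0.0018), and in BrM2 against Par, at 0.66 and 0.44 (edgeR adjusted p = 0.0047 and 0.021). APOBEC3C passed there in BrM2 against LM2 as well, at -0.39 (edgeR adjusted p = 0.038). In these comparisons 4302, 5254 and 4244 of all tested genes passed. Without replicate 2 or without replicate 3 in every line, 0 members passed in any comparison, although APOBEC3G in LM2 against Par kept log2 fold changes of 2.26 and 2.46 (edgeR adjusted p = 0.09 and 0.073). Few of all tested genes passed in those fits. They numbered 70 and 135 in LM2 against Par, 154 and 270 in BrM2 against Par, and 53 and 113 in BrM2 against LM2.

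Across the 9 libraries, log2 CPM of the members went together, with a Pearson r between 0.79 for APOBEC3B with APOBEC3F and 0.95 for APOBEC3B with APOBEC3C. The deviations from the line means, which hold the replicate 1 effect, gave r between 0.79 and 0.98. Among the tested genes most like APOBEC3G were TFDP1, a partner of E2F factors, and IGSF1, at r of 0.984 and 0.980. Those most like APOBEC3F were ZNF592, P3H4 and MPRIP (r of 0.982, 0.982 and 0.980), and those most like APOBEC3C were EDC3, PRKCZ and ZNF584 (0.990, 0.987 and 0.983). For APOBEC3B they were SCAMP5, EIF3D, a translation initiation subunit, and ATF4, a stress-response factor, at 0.989, 0.985 and 0.981. These correlations describe 9 libraries that share lines and replicate numbers.

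The APOBEC3 genes lie head to tail on the forward strand of chromosome 22, between 38957609 and 39104067 (GRCh38.p14 annotation), a stretch of 146 kb in the order APOBEC3A, B, C, D, F, G and H. Of 18 neighbouring genes listed, 17 were tested. The nearest listed neighbours on either side, the Polycomb genes CBX6 and CBX7, did not pass in any comparison, with log2 fold changes of 0.18 and 0.33 in LM2 against Par and of 0.33 and 0.08 in BrM2 against Par (edgeR adjusted p from 0.57 to 0.93). PDGFB, a growth factor gene that starts 265.8 kb from the start of APOBEC3A, rose in LM2 by 3.55 on the log2 scale against Par (edgeR adjusted p = 0.0076), from 2 to 10 counts per library to 47 to 104. It passed the filter on low counts only through LM2, so it was tested because it is high there. It was lower in BrM2 than in LM2, at -2.28 (edgeR adjusted p = 0.041), as was NPTXR, a neuronal pentraxin receptor gene, at -1.15 (edgeR adjusted p = 0.049). ATF4 had a log2 fold change of 1.09 in LM2 (edgeR adjusted p = 0.069), and SYNGR1, which encodes a synaptic vesicle protein, of 1.45 in BrM2 (edgeR adjusted p = 0.053), each against Par, and both passed with the replicate block (edgeR adjusted p = 0.00012 and 0.00069).

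The remaining neighbours did not pass in any comparison without the block. In LM2 against Par, SUN2 was at -0.67, DNAL4 at -0.20, GTPBP1 at -0.03, TAB1 at -0.03, CBY1 at 0.01, KDELR3 at 0.10, RPL3 at 0.16, TOMM22 and DDX17 at 0.23, JOSD1 at 0.34 and MIEF1 at 0.52 on the log2 scale. In BrM2 against Par they lay between -0.74 for SUN2 and 0.55 for MIEF1. MGAT3 was under the filter, with 0 to 2 counts per library. With the block, 4 neighbours passed as higher and 1 as lower in LM2 against Par, and 4 and 4 in BrM2 against Par. The block called 34.5% and 42.7% of all tested genes in these comparisons, so the counts are not particular to the neighbours.

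**Figure D4:**
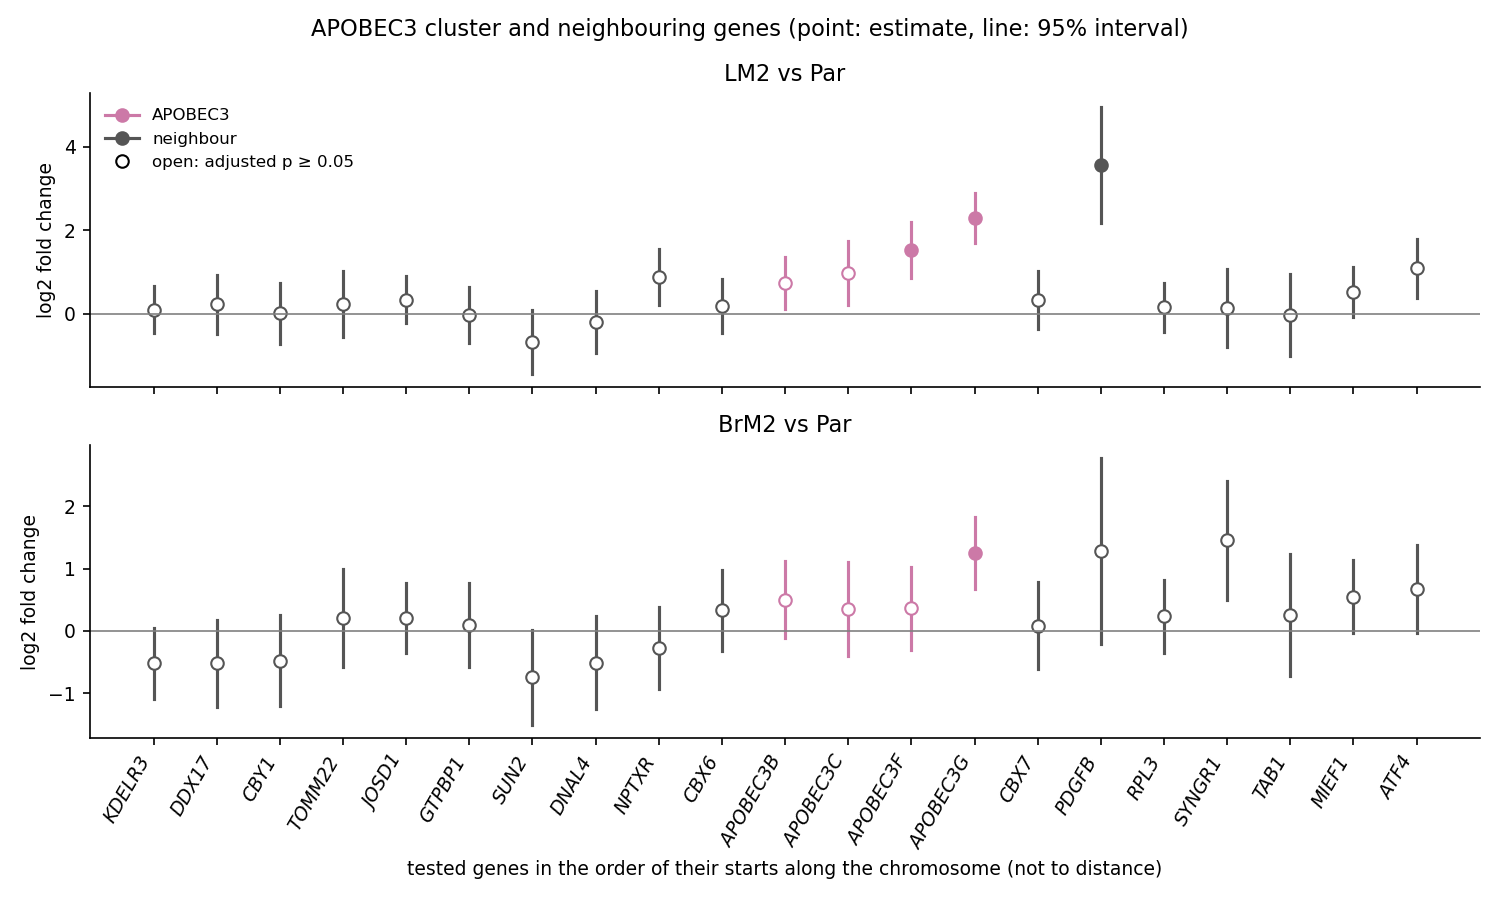
Log2 fold changes against Par, with 95% intervals, of the tested genes of the APOBEC3 cluster and its neighbourhood in chromosomal order (not to distance), for LM2 (top) and BrM2 (bottom), where filled points have an adjusted p under 0.05. In LM2 the filled points are APOBEC3F (1.53), APOBEC3G (2.29) and PDGFB (3.55), and the interval of CBX7, between APOBEC3G and PDGFB, includes 0.

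Interferon-stimulated genes were called as lower, and none as higher, in both comparisons with Par. Of 29 tested, 0 rose and 4 fell in LM2, where 587 of all 13018 tested genes were called lower, and the median log2 fold change of the list was -0.46. In BrM2 0 rose and 6 fell, where 911 of all tested genes were called lower, and the median was -0.73. With the replicate block 1 rose and 14 fell in LM2, and 1 rose and 17 fell in BrM2, where 2478 and 3018 of all tested genes were called lower. RSAD2, an antiviral enzyme, had log2 fold changes of -4.0 in LM2 and -4.93 in BrM2 (edgeR adjusted p = 0.0019 and 0.00087), from 2.79 ± 0.578 CPM in Par to levels that rest on 0 to 6 counts per library. RSAD2 passed the filter on low counts only through Par, so it was tested because it is high there. IFI27 changed by -3.29 and -4.73 (edgeR adjusted p = 0.0061 and 0.0011), from 36.5 ± 12 CPM in Par to 3.73 ± 1.66 in LM2 and 1.41 ± 0.937 in BrM2. IFIT1, which binds viral RNA, changed by -1.15 and -1.51 (edgeR adjusted p = 0.007 and 0.0013). BrM2 and LM2 differed for 1 gene of the list, HERC6, at -1.14 in BrM2 against LM2 (edgeR adjusted p = 0.019), and for 3 higher and 10 lower genes with the block, which called 37.5% of all tested genes there.

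Among 13 tested genes of interferon signalling, IFNGR2, a subunit of the interferon gamma receptor, fell in both sub-populations, with log2 fold changes against Par of -1.14 in LM2 and -1.07 in BrM2 (edgeR adjusted p = 0.019 for each). STAT2 fell in BrM2, at -0.83 against Par (edgeR adjusted p = 0.017). With the block 0 rose and 2 fell in LM2, and 0 rose and 3 fell in BrM2. Of 20 tested restriction factors outside the family, BST2, which tethers virions to the cell, fell as well, at -2.34 in LM2 and -1.68 in BrM2 against Par (edgeR adjusted p = 0.0022 and 0.0075). TRIM5, a capsid-binding factor, rose by 1.03 in BrM2 (edgeR adjusted p = 0.026), and no other gene of the list passed in a comparison with Par without the block, with which 1 rose and 3 fell in LM2 and 4 rose and 5 fell in BrM2. For both lists, the blocked counts stand beside 34.5% and 42.7% of all tested genes called with the block in LM2 and BrM2.

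Uracil left by deamination is removed by base excision repair. The 16 genes tested here were listed for uracil and abasic site repair more widely. FEN1, a flap endonuclease, rose by 0.82 in LM2 and by 0.71 in BrM2 against Par (edgeR adjusted p = 0.014 and 0.021). LIG3, a DNA ligase, was higher in BrM2 than in LM2 by 0.79 (edgeR adjusted p = 0.031). With the block 5 rose and 1 fell in LM2, and 6 rose and 0 fell in BrM2. Of all tested genes, the block called 34.5% and 42.7% in either direction, and 15.5% and 19.5% as higher. Of 11 regulators of NF-kappa-B and protein kinase C, PRKCA, a protein kinase C isoform, rose by 0.67 in LM2 against Par (edgeR adjusted p = 0.029) and was lower in BrM2 than in LM2, at -0.66 (edgeR adjusted p = 0.032). NFKB2 was higher in BrM2 than in LM2 by 1.29 (edgeR adjusted p = 0.045). Of 14 DREAM, B-MYB and p53 genes tested, TFDP1 rose by 0.84 in LM2 (edgeR adjusted p = 0.0097), and LIN52, a DREAM subunit, by 0.83 in LM2 and 0.67 in BrM2 (edgeR adjusted p = 0.02 and 0.036). With the block 1 regulator of NF-kappa-B and protein kinase C rose and 3 fell in LM2, and 1 rose and 2 fell in BrM2, while of the DREAM, B-MYB and p53 genes 4 rose and 1 fell in LM2, and 3 rose and 3 fell in BrM2. The same shares of all tested genes, 34.5% and 42.7%, stand beside these blocked counts.

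**Figure D5:**
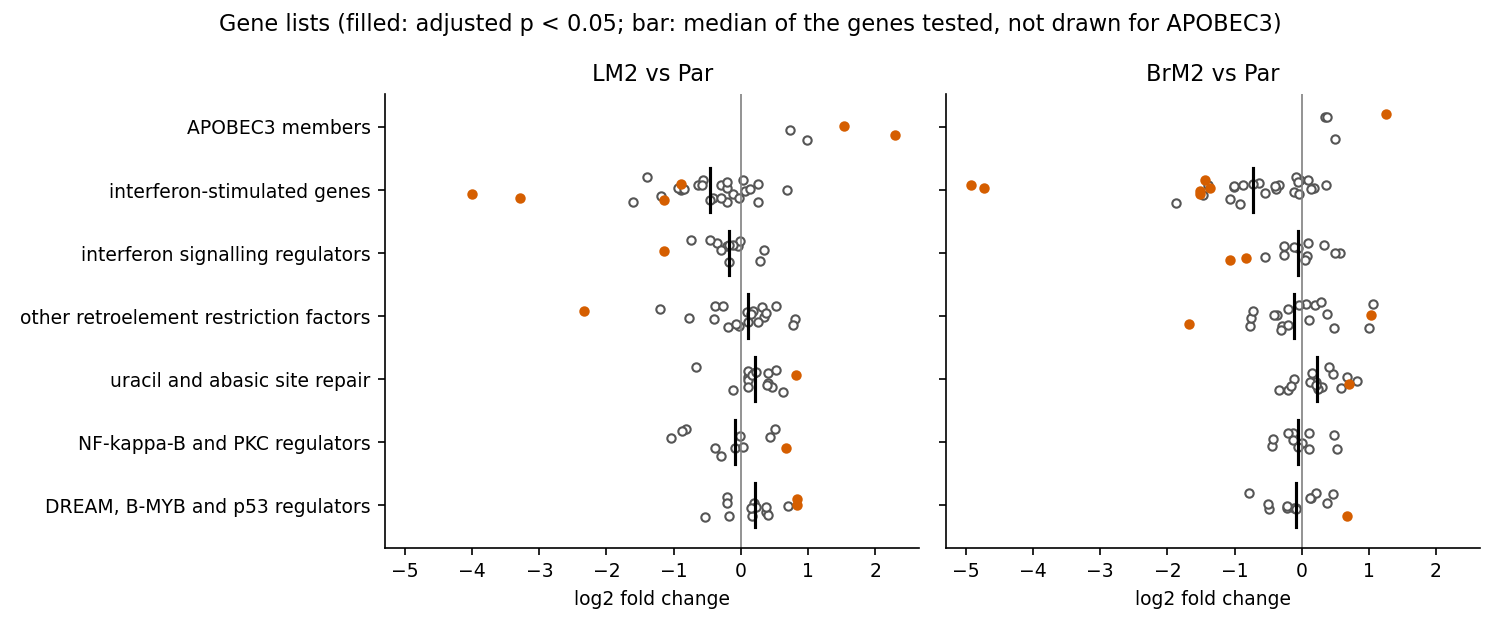
Log2 fold changes against Par of the tested genes of the APOBEC3 family and of 6 related lists, for LM2 (left) and BrM2 (right), with filled points for an adjusted p under 0.05 and bars for the median of each list, not drawn for APOBEC3. The interferon-stimulated genes have medians of -0.46 and -0.73, with RSAD2 at -4.0 and -4.93, while APOBEC3G lies at 2.29 and 1.25.

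APOBEC relatives outside the APOBEC3 cluster were near or at 0. APOBEC1, which edits apolipoprotein B mRNA, had 0 counts in all 9 libraries. APOBEC2, a muscle protein, had 2 to 12 counts per library, and APOBEC4 had 0 to 2.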

How the data were processed

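The authors sequenced TruSeq stranded mRNA libraries as paired ends and used STAR to align them to hg38 and to count reads per gene. The deposited values are raw counts per gene, not normalized. The submitters' processing notes name CASAVA 1.8.2, STAR 2.7.0 and DESeq2, and the strand that was counted is not given in the sources used here. A deposited table of the authors' DESeq2 fold changes and adjusted p-values for LM2 and BrM2 against Par was not used. Of 58887 rows, 3 repeated identifiers held identical counts and were kept once.

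Genes were filtered after HTSFilter, which compared 100 candidate thresholds between 1 and 200 on a gene's largest normalized count (loess span 0.3) and gave 47.15. edgeR 4.0.16 was run in R 4.3.3 with TMM factors, and lines were compared in a single model of all 9 libraries by its quasi-likelihood test (2-sided). P-values were adjusted over 13018 genes by the Benjamini-Hochberg method, at a threshold of 0.05, and describe the spread between passages of these lines. The edgeR fits with and without the block, limma-voom and DESeq2 were tried on data simulated without a replicate effect, for LM2 against Par. The permutation test and the replicate 1 fit were not tried in this way. DESeq2 1.42.0 and limma 3.58.1 served as alternatives, and matplotlib 3.10.9 drew the figures. Correlations used log2 CPM with a prior count of 2. The limit for 0 counts covers counting error only.

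Pairing by replicate number was checked on deviations of log2 CPM from line means. Equally numbered libraries of different lines had r between 0.23 and 0.90 in 9 pairs, and unequally numbered ones between -0.88 and 0.80 in 18 pairs. As r was above 0.1 in every equally numbered pair, the number was also used as a block, although replicates 2 and 3 were not told apart by it (BrM2 replicate 2 had r of 0.77 with Par replicate 3 and 0.23 with Par replicate 2). The common dispersion was 0.11 without it and 0.021 with it.

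The members and gene lists were chosen with earlier results of these data known. From each list the text names, in each comparison, the 3 genes with the smallest adjusted p among those past the threshold, every gene of a list of at most 4, and all tested neighbours, and for each tested member the 3 genes with the highest r. OAS1 had no matching row. Some genes that this rule selects are not reported here. Markers of luminal cells were checked as well, and of 9 listed 5 were tested. Against Par, CLDN4 was at -4.03 in LM2 and -2.26 in BrM2 on the log2 scale and GATA3 at -1.57 in LM2, in BrM2 against LM2 CLDN4 was at 1.77, and FOXA1 went from 0 to 1 counts per library to 13 to 16 and 18 to 55. FOXA1 passed the filter on low counts only through BrM2. Of 7 markers of the line, VIM rose by 1.08 in LM2 and 1.05 in BrM2, EGFR rose by 0.94 and CAV1 was at -0.99 in BrM2. Of 14 leukocyte markers 3 were tested, and CSF1R was at -2.76 in BrM2. Gene positions and lengths came from RefSeq and GENCODE annotations.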

Additional observations from a re-analysis of the deposited data

Results flagged for a closer look

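The change of APOBEC3G against Par differed between the sub-populations. It was larger in LM2 (log2 fold change 2.29) than in BrM2 (1.25), and the difference of BrM2 from LM2 was -1.03 (edgeR quasi-likelihood test, adjusted p = 0.038, lower in 3 of 3 replicates). The change of APOBEC3F against Par differed as well, at 1.53 in LM2 and 0.37 in BrM2, with a difference of -1.16 (edgeR adjusted p = 0.043, lower in 3 of 3 replicates). As the Par libraries cancel, these differences are the direct comparison of BrM2 with LM2. With the replicate block they were -1.01 and -1.17 (edgeR adjusted p = 0.0005 and 0.00029). Without the block both calls were fragile, although they passed with other tests. The DESeq2 Wald test gave adjusted p = 0.003 for APOBEC3G and 0.0045 for APOBEC3F, and limma-voom gave adjusted p = 0.038 and 0.036. Of the 9 fits that left out 1 library, APOBEC3G passed in 0 and APOBEC3F in 1. With only BrM2 and LM2 in the fit, neither passed (edgeR adjusted p = 0.099 and 0.11). APOBEC3G was lost without the filter on low counts (0.07), and APOBEC3F with relative log expression factors (edgeR adjusted p = 0.052).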

How the results depend on the processing

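The number of members past the threshold was 2 in LM2 against Par, 1 in BrM2 against Par and 2 in BrM2 against LM2. With the replicate block, in which libraries are paired by their number, it was 4, 3 and 3, and the genes past the threshold numbered 4491, 5557 and 4887 in place of 1129, 1723 and 1055. The block changed the calls of APOBEC3B and APOBEC3C given above and no other call of a member. The block without a filter on low counts, an alternative chosen after seeing the data, gave 4, 2 and 3 members and 5273, 6486 and 5704 genes. DESeq2 called 1886 genes in LM2 against Par and 1817 in BrM2 against LM2. In the latter, 1 member passed with relative log expression factors, 1 without a filter on low counts and 1 with filterByExpr, and with only the 2 lines compared 0 members and 601 genes passed. Leaving out a library, or 1 replicate number in all lines, gave 70 to 4302 genes in LM2 against Par, 154 to 5254 in BrM2 against Par and 53 to 4244 in BrM2 against LM2, the lowest without replicate 2 and the highest without replicate 1. Members past the threshold numbered 0 to 4, 0 to 3 and 0 to 3 in these fits, the highest without replicate 1 in all lines. With a single library left out, the genes numbered 586 to 1252, 937 to 2103 and 541 to 1213, and the members 1 to 2, 0 to 1 and 0 to 1. Such a fit keeps the same replicate number in the other lines. Counts divided by transcript length turned the difference in the share of APOBEC3B between BrM2 and Par from 0.6 to -0.6 percentage points, under the spread of the libraries. The cause of these shifts was not tested. Over the 12 member comparisons and all alternatives, 191 values kept their side of the threshold, 35 fell short of it and 14 newly passed. Counts of APOBEC3A and APOBEC3H did not exceed 9 in any library, so differences of moderate size in them were not detectable at this depth. Those of APOBEC3D may be limited by the overlapping read-through gene.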
